A study of Homo sapiens with 9 samples.

Results

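Interferon regulatory factors (IRFs) are transcription factors that share a helix-turn-helix DNA-binding domain and recognise the GAAA repeats of interferon-stimulated response elements (ISREs). The 8 members described here, IRF1, IRF2, IRF3, IRF4, IRF5, IRF7, IRF8 and IRF9, were taken by gene symbol from the 23284 symbols of the deposited tables, and all 8 were found in each of the 9 samples. RNA-Seq was performed on HT-29, an established human colon adenocarcinoma cell line, grown as monolayers for 5 days with 5-aza-deoxycytidine (5-Aza), a cytidine analog that traps DNA methyltransferases. The groups were the control (vehicle, DMSO, 0 µM 5-Aza), 5 µM 5-Aza and 10 µM 5-Aza, with 3 separately treated cultures in each, and RNA from every culture made its own library. The values are FPKM, fragment numbers divided by transcript length and by a library term, and they are relative here because a library sums to between 3.69e+09 and 5.91e+09 FPKM.

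In the interferon response, IRF3 and IRF7 are phosphorylated downstream of sensors of foreign nucleic acid and switch on the genes of type I and type III interferons. Secreted interferon then acts through its receptors, Janus kinases and STAT proteins, and IRF9 joins STAT2 in the complex ISGF3 that binds the ISRE. IRF1 activates genes of antigen presentation and is opposed at shared sites by IRF2, IRF5 acts downstream of Toll-like receptors, and IRF4 and IRF8 are factors of lymphoid and myeloid cells. Much of the control of IRF3, IRF5 and IRF7 is by phosphorylation, which RNA levels do not measure.

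The labelled cell type was checked against markers. The 10 colon epithelium markers were above 0 in all 9 samples, with a summed FPKM of 82854700 to 99292400 with vehicle, 35216400 to 39881200 at 5 µM and 27544500 to 48303700 at 10 µM. Most of that sum was the keratins KRT8 and KRT18, at means of 39381700 and 32981700 FPKM with vehicle and of 12559800 and 10580900 at 5 µM, both called lower by limma. CDX1 and CEACAM5 were called higher at 5 µM, and EPCAM (0.859-fold) and CDH1 (0.960-fold) were not called. On the adjusted p alone 6 of the 10 were lower at 5 µM, against 17.7% of all genes. These were KRT8, KRT18, KRT20, CDX2, VIL1 and LGALS4. At 10 µM against 0 µM KRT20 (0.419-fold) and CDX2 (0.388-fold) were called lower, and CDH1 (0.610-fold) was not called. The 10 leukocyte markers summed to 43699 to 62036 FPKM with vehicle, 116573 to 143429 at 5 µM and 68499 to 84721 at 10 µM, and 3, 1 and 3 of them were listed at 0 in every culture of the group. Of these, CD79A (means of 8368 and 79001 FPKM with vehicle and at 5 µM), ITGAM (755 and 10214) and CD3E (0 and 804) were called higher at 5 µM, CD14 was not called in any comparison (means of 37791 to 45132 FPKM), and PTPRC, which encodes the pan-leukocyte protein CD45, did not exceed 983 FPKM in any library. The 7 markers of stroma and endothelium summed to 7733 to 12741, 43447 to 56843 and 22222 to 27991 FPKM. Limma called 6 of the 7 higher at 5 µM, against 14.1% of all genes, and 1 at 10 µM against 0 µM, against 4.07%. Most of the sum was COL1A1, at means of 6567 FPKM with vehicle and 37114 at 5 µM, followed by PECAM1 (3156 and 8710). The remaining called markers were low, namely COL1A2 (23 and 669), PDGFRB (108 and 1922), VWF (247 and 1748) and CDH5 (0 and 242). CDH5 was at 0 in every control culture, so it entered the test only through the 5 µM cultures. The part of these shifts in the results below was not tested, and in RNA from whole cultures fewer cells with a transcript and less transcript per cell cannot be told apart. Of the 10 µM libraries, replicate 1 had the lowest estimated depth (11100000 fragments, against 14900000 to 30500000 in the remaining libraries) and the lowest FPKM of its group for all 6 members that were well covered.

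Promoter sequence was examined because 5-Aza acts on cytosine methylation at CpG dinucleotides. RefSeq windows on GRCh38.p14, running from 250 bases before to 50 bases after a transcription start, were matched for 5 of the 8 members and gave 9 windows. IRF2, IRF3 and IRF7 had no matched window. Only matched starts were examined, and whether they are the main start of each gene was not checked. The window of IRF1 held 36 CpG dinucleotides, more than 87.3% of the 35116 windows of the table, and that of IRF4 held 32. Across all windows the median was 14, with quartiles of 4 and 28. The window of IRF9 held 7, those of IRF8 held 3 and 9, and the 4 windows of IRF5 held 25, 34, 8 and 5. The 3 stretches that follow show this contrast between a CpG-rich and well expressed gene, a CpG-rich gene near 0 and a CpG-poor gene, each as the 250 bases before the start on the coding strand. Capitals mark CpG in IRF4. In IRF1 and IRF9 they mark matches to TTCNNNGAA, the gamma-activated site (GAS) bound by STAT dimers, and to GAA and GAAAC with any 2 bases between them, 1 of 2 forms of the ISRE searched (N stands for any base).
IRF1, chr5:132490774-132491023, minus strand: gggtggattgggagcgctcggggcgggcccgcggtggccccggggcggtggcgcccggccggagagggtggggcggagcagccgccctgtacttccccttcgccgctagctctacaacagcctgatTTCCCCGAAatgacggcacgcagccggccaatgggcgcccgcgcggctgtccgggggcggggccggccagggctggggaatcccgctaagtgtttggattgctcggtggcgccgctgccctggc
IRF4, chr6:391502-391751, plus strand: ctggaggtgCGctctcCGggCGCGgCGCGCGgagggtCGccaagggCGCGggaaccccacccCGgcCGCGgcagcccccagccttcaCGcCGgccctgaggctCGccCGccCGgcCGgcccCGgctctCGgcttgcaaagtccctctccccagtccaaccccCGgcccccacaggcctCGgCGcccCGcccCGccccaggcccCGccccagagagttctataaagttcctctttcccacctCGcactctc
IRF9, chr14:24161015-24161264, plus strand: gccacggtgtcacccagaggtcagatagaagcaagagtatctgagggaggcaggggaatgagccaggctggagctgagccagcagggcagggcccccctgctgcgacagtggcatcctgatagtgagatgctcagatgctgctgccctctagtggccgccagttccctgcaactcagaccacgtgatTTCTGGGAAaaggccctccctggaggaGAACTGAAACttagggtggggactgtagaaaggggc

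In IRF1 the GAS letters began 124 bases before the start. In IRF9 the GAS letters began 63 bases and the ISRE letters 36 bases before the start, without overlapping each other. Searched on both strands, this form of the ISRE was present in 1.46% of all 35116 windows, the GAS letters in 7.66%, and the other form, GAAA and GAAA with any 2 bases between them, which matched no window of a member, in 3.57%. The windows of IRF4, IRF5 and IRF8 held none of the 3 motifs. These matches describe the letters of the windows, and binding and methylation were not measured in these data.

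**Figure D1:**
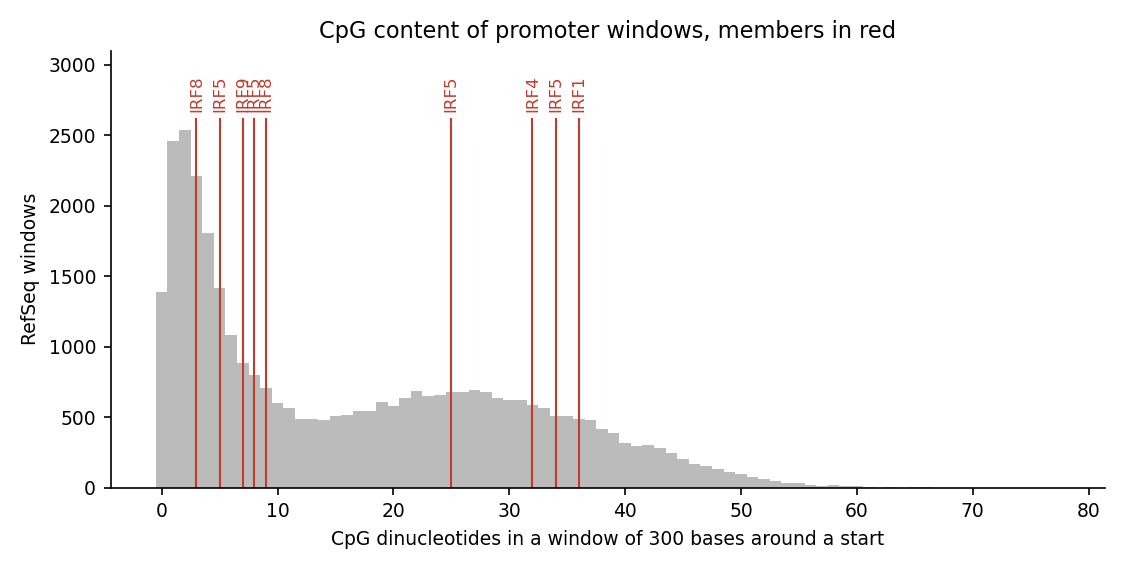
Number of RefSeq promoter windows of 300 bases (vertical axis) by the CpG dinucleotides they hold (horizontal axis), with red lines at the 9 windows of IRF1, IRF4, IRF5, IRF8 and IRF9. The windows of IRF1 (36) and IRF4 (32) lie in the CpG-rich part of the distribution. Those of IRF9 (7) and IRF8 (3 and 9) lie in the CpG-poor part, and IRF5 has windows in both. Whether these are the main starts of each gene was not checked.

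Levels of the members spanned a wide range at every dose. IRF7 and IRF3 were the most abundant, at mean FPKM of 968080 and 914829 in the control, and their replicates overlapped there. IRF9 followed at 513792, IRF1 at 165857, and IRF2 and IRF5 at 86611 and 78943, which again overlapped. IRF8 and IRF4 lay far below, with the control mean of IRF5 139-fold above that of IRF8. Among the symbols above 0 in a library, IRF3 and IRF7 stood between the 93.7 and 98.0 percentiles, IRF9 between 88.0 and 93.4, and IRF4 and IRF8 at or below 13.8. At 5 µM the first 6 members kept this order and none of the neighbours overlapped. At 10 µM IRF3 had the highest mean, overlapping IRF7, and IRF5 and IRF2 overlapped again.

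**Figure D2:**
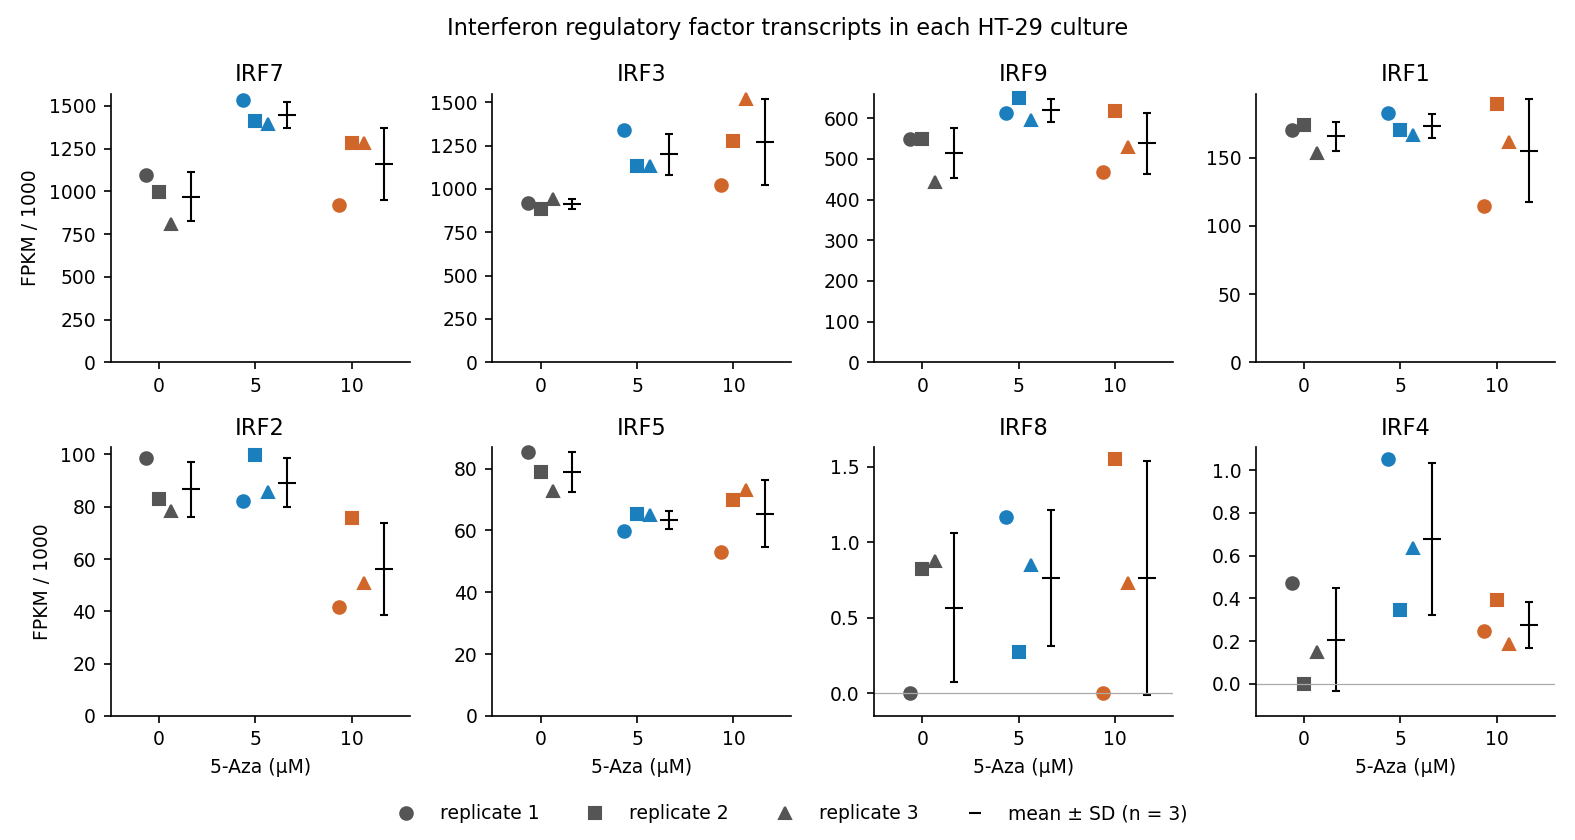
FPKM divided by 1000 (vertical axes from 0, with a margin below 0 for IRF8 and IRF4, different scales) of the 8 members at 0, 5 and 10 µM 5-Aza, with 1 symbol per culture and bars for mean ± SD (n = 3). The 3 IRF7 values at 5 µM lie above all control values, the control and 5 µM values of IRF1 overlap, and IRF8 and IRF4 lie near 0 at every dose.

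IRF7, the amplifier of type I interferon transcription, showed the largest change among the well covered members at 5 µM. It lies on the minus strand of GRCh37 chromosome 11 (612553 to 615983), with no exonic bases shared with another annotated gene. Its FPKM was 1095060, 998246 and 810935 with vehicle, 1535500, 1411470 and 1392680 at 5 µM, and 919246, 1280670 and 1282390 at 10 µM. All 5 µM cultures were above all control cultures and above all 10 µM cultures, whereas the 10 µM cultures overlapped the control. Against 0 µM, the 5 µM cultures had a log2 fold change of 0.59 (standard error, SE, 0.12, 95% confidence interval 0.29 to 0.89, adjusted p = 0.0111 by limma over 20051 genes), a 1.49-fold higher mean. It passed the adjusted p but not the 2-fold threshold that a called gene also needs. The difference kept its direction under all 4 other scalings but missed the adjusted p when values were divided by those of ZNF311 (adjusted p = 0.0533), and it ranged from 0.47 to 0.68 on the log2 scale when each culture was left out in turn. Between 5 µM and 10 µM it was -0.33 (SE 0.19, adjusted p = 0.303 by limma), and against the control the 10 µM value was 0.26 (adjusted p = 0.392), or 0.42 without 10 µM replicate 1 (adjusted p = 0.160 by limma). This 10 µM difference passed the adjusted p under total scaling (0.0139) and on the GAPDH reference (0.0191).

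In the study, IRF7 was also assayed by qRT-PCR in the control and 5 µM cultures with GAPDH, a glycolytic enzyme, as the reference. Those assays were not analysed here, and the same ratio was formed from the FPKM values. IRF7 over GAPDH was 0.0990, 0.0937 and 0.0946 in the control, 0.266, 0.221 and 0.227 at 5 µM, and 0.219, 0.147 and 0.190 at 10 µM. Every treated culture lay above every control culture, which was also so for IRF3 and IRF9 over GAPDH. On this reference the log2 fold change of IRF7 at 5 µM was 1.31, past the 2-fold threshold. There 29.5% of all genes were called, and the median log2 difference over genes above 0 in all 6 samples was 0.68. GAPDH itself was lower at 5 µM by limma (log2 fold change -0.72, adjusted p = 0.00952), which adds to the ratio, so the size of the IRF7 difference depends on the reference.

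IRF3, the constitutively present factor that starts interferon transcription, lies on the minus strand of GRCh37 chromosome 19 (50162826 to 50169132). Its FPKM was 918398, 884658 and 941432 with vehicle, 1338260, 1131850 and 1133190 at 5 µM, and 1021330, 1275680 and 1517250 at 10 µM. Every treated culture was above the control, and the doses overlapped each other. The log2 fold change at 5 µM was 0.39 (SE 0.09, adjusted p = 0.0151 by limma), within the 2-fold threshold, and 10 µM against 0 µM gave 0.46 (SE 0.18, adjusted p = 0.119). The 5 µM difference missed the adjusted p when values were divided by ZNF311 (adjusted p = 0.0701), when all 9 samples were fitted together (0.0958) and without control replicate 2 (0.0591). At 10 µM the adjusted p passed under median-of-ratios scaling (0.0284), total scaling (0.0125) and the GAPDH reference (0.0252). Of the exonic bases of IRF3, 19.3% are shared with BCL2L12 on the opposite strand, and no strand setting for the counting is stated in the sources used here. Reads of this pair may not be told apart where the genes overlap, and BCL2L12 itself was higher at 5 µM by 0.36 on the log2 scale (adjusted p = 0.00492 by limma).

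IRF9, the DNA-binding subunit of ISGF3, lies on the plus strand of GRCh37 chromosome 14 (24630443 to 24637252). Its FPKM was 549918, 548292 and 443165 with vehicle, 612259, 650346 and 595136 at 5 µM, and 466890, 616950 and 530112 at 10 µM. All 5 µM cultures were above all control cultures, whereas 10 µM overlapped both groups. The log2 fold change at 5 µM was 0.28 (SE 0.10, adjusted p = 0.0755 by limma), which missed the threshold. It passed under median-of-ratios scaling (0.31, adjusted p = 0.0236), under total scaling (0.56, adjusted p = 0.00105) and on the GAPDH reference (1.00, adjusted p = 0.00012). A total of 27.2% of the annotated exonic bases of IRF9 are shared with other annotated genes.

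IRF1, an activator induced by interferon gamma, and IRF2, its antagonist, lie on the minus strand of GRCh37 chromosomes 5 (131776132 to 131844411) and 4 (185306856 to 185395712). IRF1 FPKM was 170222, 173790 and 153560 with vehicle, 182918, 170399 and 166580 at 5 µM, and 114546, 189848 and 161385 at 10 µM. All 3 groups overlapped, and the log2 fold change at 5 µM was 0.06 (95% confidence interval -0.12 to 0.25, adjusted p = 0.514 by limma). At 5 µM both genes passed the adjusted p in 2 of 11 other settings, scaling to the total and to GAPDH, the latter with 0.78 for IRF1 (adjusted p = 0.00104) and 0.76 for IRF2 (adjusted p = 0.00109 by limma). IRF1-AS1 lies on the opposite strand, and 22.9% of the exonic bases of IRF1 are shared. IRF2 FPKM was 98570, 83064 and 78200 with vehicle, 82260, 99760 and 85540 at 5 µM, and 41673, 75633 and 51011 at 10 µM. All 10 µM cultures of IRF2 were below the control and 5 µM cultures, which overlapped each other.

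For IRF2 the log2 fold change was 0.04 at 5 µM (adjusted p = 0.785), -0.71 from 5 µM to 10 µM (SE 0.23, adjusted p = 0.125) and -0.66 from the control to 10 µM (SE 0.23, adjusted p = 0.0904 by limma). Without 10 µM replicate 2, its highest culture of that dose, the last 2 differences were -0.95 (adjusted p = 0.0140) and -0.90 (adjusted p = 0.0111), and on the GAPDH reference the difference between 10 µM and control turned to 0.016. Between 10 µM and 5 µM the difference also passed under total scaling (adjusted p = 0.0447), and between 10 µM and control with all 9 samples in 1 limma fit (adjusted p = 0.0422). The ratio of IRF1 to IRF2 within a library, formed after these values were seen and given without a test, was 1.73, 2.09 and 1.96 in the control, 2.22, 1.71 and 1.95 at 5 µM, and 2.75, 2.51 and 3.16 at 10 µM. It lay above both lower doses in all 3 cultures at 10 µM, and as a ratio within a library it does not depend on the scaling of the library.

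IRF5, a factor of Toll-like receptor signalling, lies on the plus strand of GRCh37 chromosome 7 (128577511 to 128590092). Its FPKM was 85381, 78810 and 72638 with vehicle, 59905, 65222 and 65118 at 5 µM, and 53123, 70017 and 73131 at 10 µM. All 5 µM cultures were below all control cultures, and the 10 µM cultures overlapped both groups. The log2 fold change at 5 µM was -0.31 (SE 0.09, adjusted p = 0.0364 by limma), but it turned to 0.41 on the GAPDH reference (adjusted p = 0.00954) and was -0.03 under total scaling. It also missed the adjusted p in 5 of the 6 fits that left out 1 culture.

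IRF4 and IRF8, on the plus strand of GRCh37 chromosomes 6 (391739 to 411443) and 16 (85932722 to 85956212), were close to the limit of detection. IRF4 FPKM was 472, 0 and 148 with vehicle, 1054, 345 and 637 at 5 µM, and 248, 392 and 185 at 10 µM, with at most 15.3 estimated fragments in any library. IRF8 FPKM was 0, 825 and 875 with vehicle, 1165, 272 and 847 at 5 µM, and 0, 1551 and 732 at 10 µM, and the steps of its values correspond to 0, 4 and 6, then 9, 2 and 7, then 0, 10 and 4 fragments. The groups of both genes overlapped in every comparison. Their fitted log2 fold changes at 5 µM, 3.90 for IRF4 (adjusted p = 0.222) and 2.85 for IRF8 (adjusted p = 0.424 by limma), fell to 0.47 and 0.19 with a pseudocount of 1000 in place of 1. No change of either gene was detected, and whether a greater depth would show one was not tested.

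**Figure D3:**
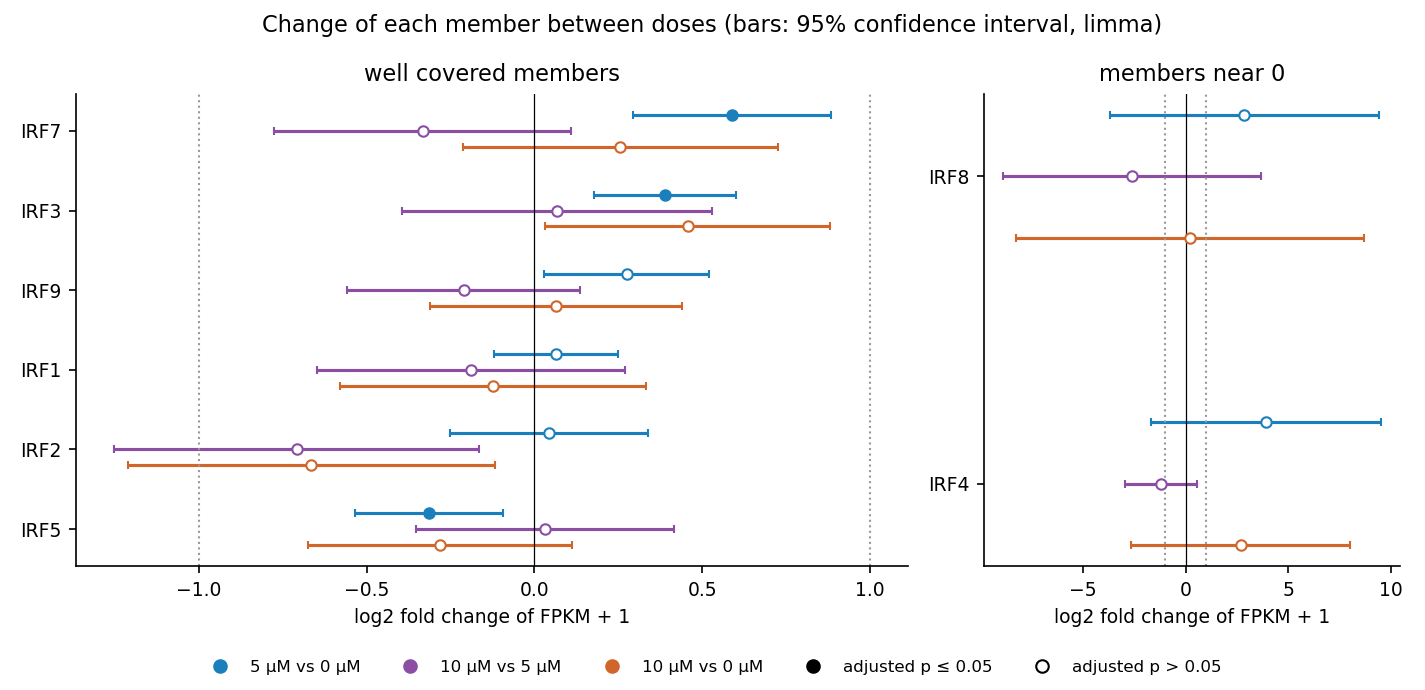
Log2 fold change of FPKM + 1 (horizontal axes) for each member (vertical axis) in the 3 comparisons, with 95% confidence intervals from limma; the dotted lines mark a 2-fold change and filled points an adjusted p of at most 0.05. The filled points are IRF7 (0.59), IRF3 (0.39) and IRF5 (-0.31, or 0.41 on the GAPDH reference), all at 5 µM against 0 µM and all inside the dotted lines.

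Across the members, 0 of 8 were called at 5 µM against 0 µM, where 16.2% of all 20051 genes tested were called. On the adjusted p alone 3 of 8 passed, against 39% of all genes. These were IRF3 and IRF7, higher as were 21.3% of all genes, and IRF5, lower as were 17.7% but higher on the GAPDH reference. At an unadjusted p under 0.05 in limma there were 4, IRF9 included, against 48.6% of all genes. The replicates of 4 members, IRF3, IRF5, IRF7 and IRF9, did not overlap between these groups, against 52.7% of all genes, so these shares are near the background. The members had a median log2 fold change of 0.33, and all genes tested one of 0.14. The first includes IRF4 (3.90) and IRF8 (2.85), whose fold changes depend on the pseudocount. The second includes genes at 0 in some samples, and over genes above 0 in all 6 samples it was -0.04. These medians therefore do not show a shift of the family. From 5 µM to 10 µM, 0 of 8 members were called against 4.95% of all genes, and 0 of 8 passed on the adjusted p alone against 6.17% (1 at an unadjusted p under 0.05, against 24.8%). Only IRF2 and IRF7 did not overlap there, against 29.6% of all genes. At 10 µM against 0 µM, 0 of 8 members were called against 7.48% of all genes, 0 of 8 passed on the adjusted p alone against 15.1% (2 at an unadjusted p under 0.05, against 35.5%), and IRF2 and IRF3 did not overlap, against 41.1%. The comparisons share their groups, so these counts are not independent of each other. No exact permutation test could reach significance, since its smallest 2-sided p with 3 against 3 cultures is 0.1.

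The scaling of the libraries shifted all members together. Over genes above 0 in all 6 samples, the median log2 difference at 5 µM against 0 µM was -0.04 in the values as deposited, 0.00 under median-of-ratios scaling, 0.25 under total scaling, 0.10 on the ZNF311 reference and 0.68 on the GAPDH reference. At 10 µM against 0 µM it was -0.23 as deposited and 0.01, 0.14, -0.44 and 0.45 in the same order. Of all genes called at 10 µM against 0 µM, 54.5% were higher as deposited, 79.8% under median-of-ratios scaling, 89.3% under total scaling, 68.1% with ZNF311 and 97.1% with GAPDH. On the GAPDH reference IRF3 (1.11) and IRF7 (1.31) were called at 5 µM, where 29.5% of all genes were, and IRF3 (1.14) at 10 µM, where 6.56% were. Both lay above that shifted median at 5 µM, as they did in the values as deposited, since a scaling moves the genes and their median alike.

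**Figure D4:**
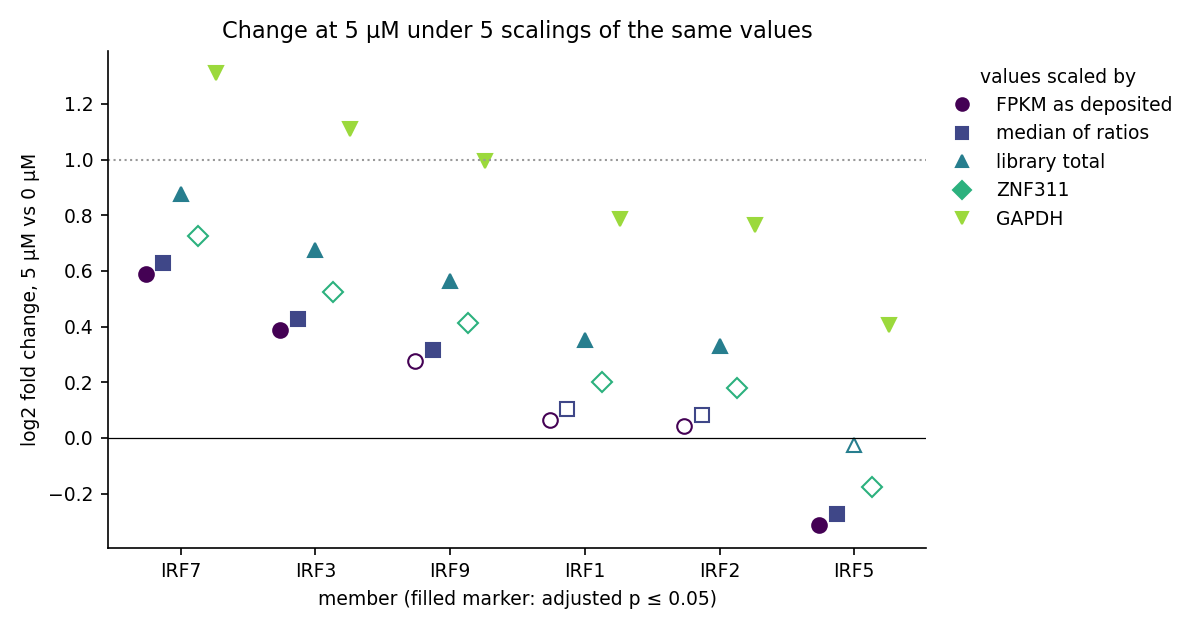
Log2 fold change at 5 µM against 0 µM (vertical axis) of the 6 well covered members (horizontal axis) in the values as deposited and under 4 other scalings, with filled markers for an adjusted p of at most 0.05. The order of the members, from IRF7 to IRF5, is the same throughout because a scaling shifts all of them alike. IRF5 lies below 0 except on the GAPDH reference (0.41).

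Among the genes upstream, STAT2, a partner of IRF9 in ISGF3, passed the 2-fold threshold that IRF9 missed, and the difference between these genes was not tested. STAT2 FPKM was 214880 ± 12154 (SD, n = 3) with vehicle, 507785 ± 40607 at 5 µM and 312132 ± 37963 at 10 µM. It was called higher at 5 µM (log2 fold change 1.24, adjusted p = 0.000267 by limma). STAT2 over IRF9 within a library, given without a test, was 0.398 to 0.454 in the control, 0.758 to 0.904 at 5 µM and 0.513 to 0.680 at 10 µM, with no overlap between the 3 doses. Of 11 kinases and adaptors that act on IRF3, IRF5 and IRF7, limma called 0 at 5 µM against 16.2% of all genes (5 at an unadjusted p under 0.05, against 48.6%), with a median of 0.06. On the adjusted p alone 2 were higher, against 21.3% of all genes, TBK1 (0.51, adjusted p = 0.00535) and IKBKE (0.42, adjusted p = 0.0367 by limma). Another 2 were lower, against 17.7%, IRAK1 (-0.82, adjusted p = 0.00283) and TICAM1 (-0.44, adjusted p = 0.0112 by limma). IRAK1, a kinase of Toll-like receptor signalling, was called lower at 10 µM against 0 µM as deposited (log2 fold change -1.01, adjusted p = 0.0395 by limma), but under none of the 4 other scalings, where it lay between -1.21 (ZNF311) and -0.33 (GAPDH). It still passed the adjusted p by limma under median-of-ratios (0.0189) and total scaling (0.0178).

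Of 6 corepressors and negative regulators of IRFs, TRIM21, a ubiquitin ligase with IRF substrates, was called higher at 5 µM (log2 fold change 1.14, adjusted p = 0.00722 by limma). The IRF2-binding proteins are corepressors of IRF2. IRF2BP2 FPKM was 741089 ± 33545 (SD, n = 3) with vehicle, 414433 ± 32830 at 5 µM and 369510 ± 71457 at 10 µM, and it was called lower at 10 µM against 0 µM as deposited (log2 fold change -1.02, adjusted p = 0.0122). At this comparison 3.4% of all genes were called lower. IRF2BPL was also called lower (log2 fold change -1.12, adjusted p = 0.0215 by limma), while IRF2BP1 was not called (log2 fold change -0.34, adjusted p = 0.346). Neither call held under any of the 4 other scalings, where values lay between -1.23 (ZNF311) and -0.34 (GAPDH) for IRF2BP2 and between -1.32 and -0.44 for IRF2BPL. Both still passed the adjusted p by limma under median-of-ratios scaling (0.00315 and 0.0118) and total scaling (0.00543 and 0.0237), missing only the 2-fold threshold. At 5 µM against 0 µM IRF2BP2 had a log2 fold change of -0.84 (adjusted p = 0.000697 by limma), also within that threshold.

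Of 7 type I and type III interferon genes, 2 (IFNB1 and IL28B) were called higher at 5 µM, against 14.1% of all genes. At 10 µM against 0 µM 1 (IL28B) was, against 4.07%. IFNE, the most abundant of the 7, went the other way as deposited, at mean FPKM of 163286 with vehicle and 99471 at 5 µM. Its log2 fold change was -0.70 (adjusted p = 0.00656 by limma), within the 2-fold threshold. The 7 summed to 142284 to 199941 FPKM with vehicle and 121350 to 128812 at 5 µM. IFNB1, which encodes interferon beta, was listed at 0 in all control cultures, at 2529, 3194 and 3783 FPKM at 5 µM, and at 0, 2424 and 11443 FPKM at 10 µM. Its steps correspond to 5, 6 and 8 fragments at 5 µM and to 0, 4 and 16 at 10 µM. IL28B was listed at 0 in the control and lay between 3935 and 6214 FPKM at 5 µM, but it has a close paralog in IL28A between which reads may be split. Of the 6 lymphoid and myeloid partners of IRF4 and IRF8, 3 (BATF, BATF3 and SPIB) were called higher at 5 µM, against 14.1% of all genes. Their means there were 9458, 1911 and 1916 FPKM, against 2282, 0 and 54 with vehicle, all at low levels. BATF3 was at 0 in every control culture, so it entered the test only through the 5 µM cultures. The fold changes of BATF3 and SPIB depend on the pseudocount. IKZF3 went the other way, at means of 3525 FPKM with vehicle and 1806 at 5 µM, and was not called (adjusted p = 0.0687 by limma).

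Of 18 interferon-stimulated genes with an ISRE, 17 were called higher and 0 lower at 5 µM, with a median log2 fold change of 1.55 against 0.14 over all genes and called shares of 14.1% higher and 2.17% lower over all genes. HERC5, which encodes a ligase of the ubiquitin-like protein ISG15, had a log2 fold change of 4.30 (SE 0.30, adjusted p = 0.000298), RSAD2, the antiviral enzyme viperin, 2.89 (adjusted p = 0.000765), MX1, an antiviral GTPase, 1.87 (adjusted p = 0.00325) and IFIT3 1.85 (adjusted p = 0.00208 by limma). HERC5 FPKM was 2231 ± 875 (SD, n = 3) with vehicle, 42075 ± 4248 at 5 µM and 17529 ± 9825 at 10 µM. Between 15 and 18 of the 18 were called under the other settings except limma's treat, which tests against the 2-fold threshold itself and called 2. From 5 µM to 10 µM limma called 0 of 18 (14 at an unadjusted p under 0.05, against 24.8% of all genes), with a median of -0.86 against -0.31 over all genes. At 10 µM against 0 µM 3 were called higher (HERC5, RSAD2 and IFI44L), against 4.07% of all genes, with a median of 0.67, and this count ran from 0 with ZNF311 to 13 with GAPDH. It was also 0 without control replicate 2.

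Of 11 targets of IRF1, 5 were called higher and 0 lower at 5 µM, against 14.1% and 2.17% of all genes. These were NLRC5, a transactivator of MHC class I genes (log2 fold change 2.73, adjusted p = 0.000475), SOCS1, an inhibitor of Janus kinases (2.02, adjusted p = 0.0132), the immunoproteasome subunit PSMB9 (1.68, adjusted p = 0.00645), the peptide transporter TAP1 (1.58, adjusted p = 0.00121 by limma) and PSMB8. The list had a median of 1.58, which includes low genes whose fold changes depend on the pseudocount. Among these, CASP1 had 5.56 (adjusted p = 0.157 by limma), and CIITA 2.21 although its mean FPKM was 361 with vehicle and 309 at 5 µM. The lowest value was that of GBP2 (-0.10, not called). NLRC5 was also called at 10 µM against 0 µM (1.92, adjusted p = 0.0111), as the only gene of its list. IRF1 itself overlapped between all doses, as given above. Several of these genes also respond to other factors, and the list does not separate them.

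**Figure D5:**
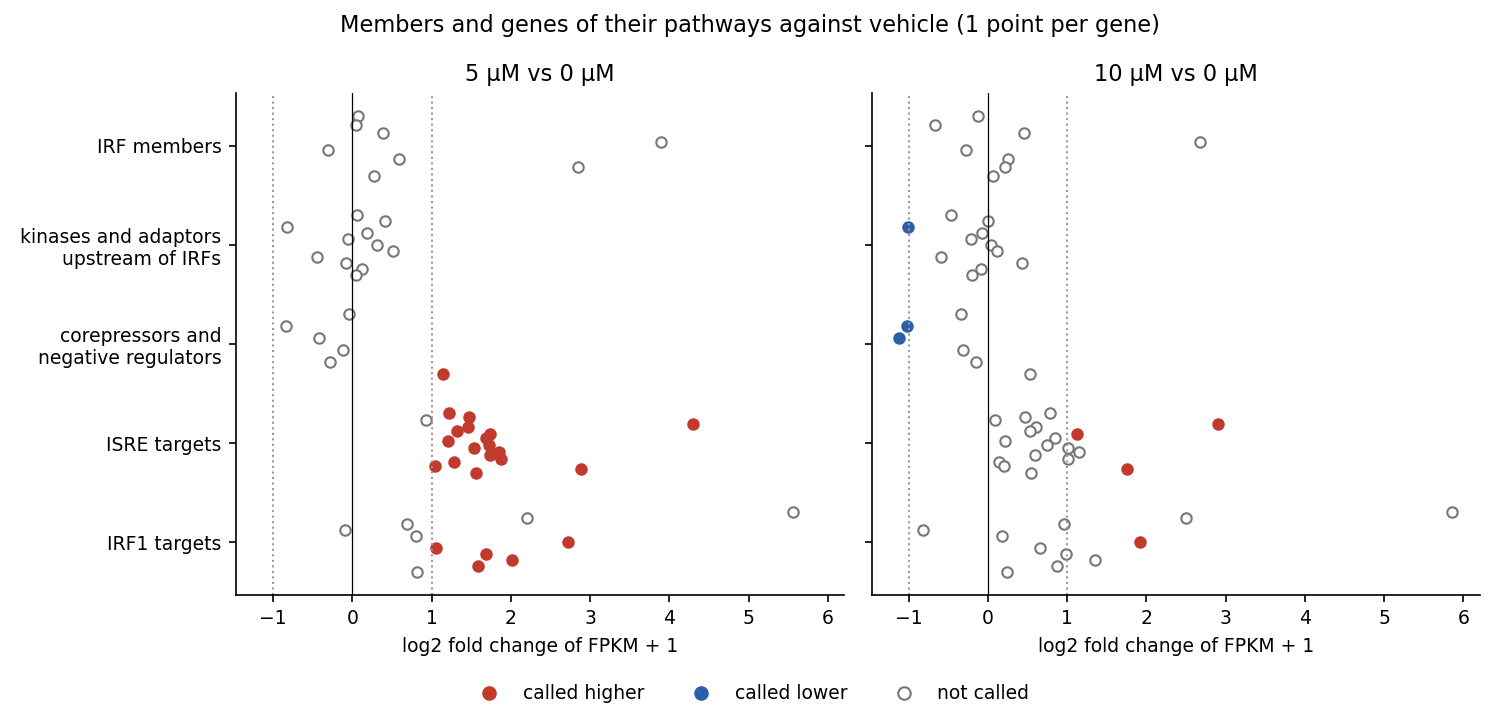
Log2 fold change of FPKM + 1 (horizontal axes) at 5 µM and at 10 µM against 0 µM, with 1 point per gene, for the 8 members and 4 lists of genes upstream or downstream of them (vertical axis); red and blue points were called higher and lower and the dotted lines mark a 2-fold change. At 5 µM 17 of 18 ISRE targets and 5 of 11 IRF1 targets are red and no member is, and at 10 µM 3 and 1 are red.

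Among the 15 pairs of the 6 well covered members, those that varied most alike over the 9 samples were IRF7 and IRF9 (Pearson's r = 0.89 of log2 values), and the least alike were IRF3 and IRF5 (r = -0.31). Of 15273 genes above 0 in all 9 samples, the 2 most like IRF7 were MT1E, a metallothionein, and IFI27, an interferon-stimulated gene (r = 0.98 for each), with MT1E uncertain because metallothionein genes are near-identical. Those most like IRF9 were OASL, an interferon-stimulated gene (r = 0.98), and DDX24, an RNA helicase (r = 0.96). For IRF3 they were SIRT7 and LOC100289092, for IRF1 ZNF219 and UBL5, for IRF2 C15orf24 and MMD, and for IRF5 C9orf16 and NME2, with r between 0.97 and 0.99. The 9 points share 3 doses and the scaling of each library, which enters both genes of a pair, so these values are descriptions only.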

How the data were processed

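RNA-Seq was performed on 9 HT-29 cultures (3 per dose), grouped by the sample labels. After quality filtering (FASTX-Toolkit) and TopHat alignment to hg19, the authors computed FPKM values with Cufflinks and deposited them as 1 table per library. Alignment used default settings for paired reads and libraries came from the TruSeq RNA kit. The library term, the annotation version and any strand setting of Cufflinks are not given in the sources used here. Because FPKM values are not counts, no count model was fitted. Values of repeated symbols (543 of 23284) were summed, 1 was added and log2 taken, so fold changes of low genes depend on that pseudocount. Genes reaching 10 FPKM in either group were compared per pair of doses with limma 3.58.1 in R 4.3.3 (intensity trend, no block), adjusted by Benjamini-Hochberg over all genes tested. On the scale of these values that minimum removed few genes. At 5 µM against 0 µM it left 20051 genes, against 20115 with no filter. The shares over all genes therefore include genes at 0 or a few fragments, unlike the well covered members. Called genes had an adjusted p no larger than 0.05 together with a change of more than 2-fold in either direction. The scripts were tested on simulated data.

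Depth was estimated because the FPKM tables give no totals: each of the 46 non-zero values at 12 microRNA genes (110 nucleotides long) was a whole number of steps of its library (tolerance 0.01). For longer genes fragments were scaled by annotated length, which came within 15% for 62.9% of 771 genes, so these numbers are estimates and cover counting error only. The 8 members had estimates from 0 (IRF4, IRF8) to 8080 fragments (IRF7).

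The members, the gene lists and the promoter motifs were chosen with earlier results of these data known. Named genes are the 8 members and up to 4 called genes per list by size of change at 5 µM. STAT2, the IRF2BP genes, IFNB1, the references GAPDH and ZNF311, and the 2 genes most like each member were also named. The markers, BCL2L12, IRF1-AS1, PSMB8, IFI44L, IFNE, IKZF3, CASP1, CIITA, GBP2, TBK1, IKBKE and TICAM1 were named after their values were seen. A result that this rule would name is not reported here. Alternatives were other pseudocounts, filters, thresholds and scalings, all 9 samples in 1 fit, a replicate block, the largest entry of repeated symbols, and each culture left out. Scalings of IRAK1, IRF2BP2 and IRF2BPL were added after seeing the data. Gene positions are from the GRCh37 annotation and promoter sequences from RefSeq on GRCh38.p14. Microarray and qRT-PCR data were not analysed here.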

Additional observations from a re-analysis of the deposited data

How the results depend on the processing

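Of 407 values of the members under alternatives, 349 kept direction and side of the threshold, 17 came to pass it, 13 ceased to pass it and 28 changed sign. The counts of all genes called moved from 3254 at 5 µM against 0 µM to 5923 on the GAPDH reference, 7816 without the fold threshold and 1533 by treat; from 995 at 10 µM against 5 µM to 418 with the replicate block and 381 by treat; and from 1415 at 10 µM against 0 µM to 385 on the ZNF311 reference, 2857 without the fold threshold and 161 by treat. Leaving out 1 culture gave 188 (without 5 µM replicate 3) to 1937 (without 10 µM replicate 2) and 565 (without 10 µM replicate 3) to 2319 (without 10 µM replicate 2) for the last 2 comparisons, and 2822 to 3498 for the first. Members called numbered 2 on the GAPDH reference (29.5% of all genes) and 3 without the fold threshold (39%) at 5 µM, and 1 on the GAPDH reference (6.56%) at 10 µM against 0 µM.

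Signs changed at 5 µM against 0 µM for IRF5 with GAPDH (0.41). At 10 µM against 5 µM they changed for IRF1 under median-of-ratios scaling (0.0145), IRF5 with GAPDH (-0.0080) and ZNF311 (-0.31) and IRF3 with ZNF311 (-0.27). At 10 µM against 0 µM they changed for IRF1 under median-of-ratios scaling (0.12), total scaling (0.26) and GAPDH (0.56), IRF5 under total scaling (0.10) and GAPDH (0.40), IRF2 with GAPDH (0.0158) and IRF9 with ZNF311 (-0.14). With 1 culture left out, signs changed within -0.0391 to 0.14 (IRF2) and -0.40 to 4.49 (IRF8) at 5 µM against 0 µM, within -0.35 to 0.0156 (IRF1), -0.0690 to 0.22 (IRF3), -0.0552 to 0.18 (IRF5) and -4.58 to 0.72 (IRF8) at 10 µM against 5 µM, and within -0.28 to 0.0798 (IRF1), -0.0115 to 4.43 (IRF4), -3.03 to 3.57 (IRF8) and -0.0393 to 0.16 (IRF9) at 10 µM against 0 µM. The causes were not tested beyond the shift each scaling adds. With a minimum of 10 in all 3 replicates, IRF8 gave no value at 10 µM against 0 µM.

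Replicate numbers were shared by the labels but did not pair the cultures: deviations of same-numbered samples correlated between -0.07 and 0.09 over 9 pairs, and 3 of 9 samples correlated best with their own number. With the replicate block 2967, 418 and 1194 genes were called in the 3 comparisons, and no member was.

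IRF4 and IRF8 rest on at most 15.3 estimated fragments in any library, and the part of depth in their results was not tested. The 3 cultures per dose were separate dishes of 1 cell line, each with its own library. The p-values therefore rest on the spread between such dishes, which includes differences between their libraries.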
